A study of Mus musculus with 12 samples.

Results

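The 9 genes of polyamine metabolism described here are Odc1, Amd1, Srm, Sms, Sat1, Paox, Smox, Oaz1 and Azin1, out of 32047 genes in the deposited count table. They were chosen by name, for making, acetylating and oxidising polyamines, with the count differences between the study's groups in all 12 libraries already known. The fold changes and p-values below therefore describe these genes and are no evidence for the choice of them. Poly(A) RNA from mouse kidney was sequenced in 12 libraries, 4 in each of 3 groups. The AKI_A_FGF23_R176QR179Q libraries, called FGF23 variant here, came from mice made to overexpress FGF23 with the substitutions R176Q and R179Q, and then given the acute kidney injury (AKI) model that the series names RM-AKI 3 weeks later. FGF23 is a bone hormone that lowers phosphate reabsorption in the kidney, and RM usually stands for rhabdomyolysis, the breakdown of skeletal muscle. The AKI_A_mcherry libraries, called mCherry here, carry the same AKI label and the name of a red fluorescent protein. The libraries labelled NC carry no AKI label, and the labels do not expand NC. Strain, sex, age, the vector and the promoter behind the overexpression, and whether each library is 1 animal, are not stated by the labels, so the p-values measure the spread between these libraries. The mCherry and NC groups differ in both the injury label and the mCherry label, and these cannot be told apart.

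Polyamines (putrescine, spermidine and spermine) are small positively charged molecules that bind RNA, DNA and proteins and that growing cells need. ODC1 turns ornithine into putrescine, and spermidine synthase (SRM) and spermine synthase (SMS) each add an aminopropyl group, which AMD1 supplies by decarboxylating S-adenosylmethionine. SAT1 acetylates spermidine and spermine, PAOX oxidises the acetylated forms, and SMOX oxidises spermine directly and releases hydrogen peroxide. In mouse kidney the proximal tubule makes much ODC1 under androgen, so Odc1 is more abundant in males.

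The counts of a library summed to between 61687187 and 69271791 in the FGF23 variant group, 55324078 and 65730739 in mCherry, and 61591826 and 70638283 in NC. Fgf23 had 320 to 517 counts in the FGF23 variant libraries and 0 in the 8 others, where a nominal 3 counts per library allow up to 0.0602 CPM (counts scaled to a common library size with TMM factors). The tubular injury marker Havcr1 averaged 1061 ± 496 CPM in the FGF23 variant group, 2813 ± 755 CPM in mCherry and 3.23 ± 1.22 CPM in NC (SD, n = 4 each). The summed markers of the early proximal tubule (Slc5a2, Slc5a12, Slc34a1, Lrp2 and Gatm) came to 771 to 2072 CPM in the FGF23 variant libraries, 564 to 648 CPM in mCherry and 5172 to 8374 CPM in NC, and none of the 5 was at 0. The summed skeletal muscle markers stayed at or below 1.35 CPM in every library, with up to 3 of the 4 at 0. In whole tissue, fewer cells of a type and less RNA per cell cannot be told apart for any gene below.

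Per gene length, Odc1 had the highest mean of the 9 genes in each group. Its FPKM (fragments relative to gene length and sequencing depth, as deposited) averaged 185 ± 12.1 in the FGF23 variant group, 171 ± 30.4 in mCherry and 274 ± 63.4 in NC (SD, n = 4 each). In the FGF23 variant libraries Odc1 was followed by Oaz1 and Sat1, whose ranges overlapped, then by Srm at 47.1 FPKM, Azin1 and Amd1, which overlapped, Sms and Smox, which overlapped, and Paox at 1.98 FPKM. In the mCherry libraries the ranges of Odc1, Sat1 and Oaz1 overlapped from one to the next, as did those of Srm and Amd1 and those of Azin1 and Smox, and Sms and Paox were the lowest at 4.09 and 1.48 FPKM. In the NC libraries the order was Odc1, Oaz1, Sat1, Azin1, Amd1, Srm, Sms, Paox and Smox, and among neighbours in that order only Amd1 and Srm overlapped. Smox stood eighth in the FGF23 variant group at 3.33 ± 0.321 FPKM, seventh in mCherry at 13.8 ± 1.96 FPKM and last in NC at 1.31 ± 0.0772 FPKM.

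**Figure D1:**
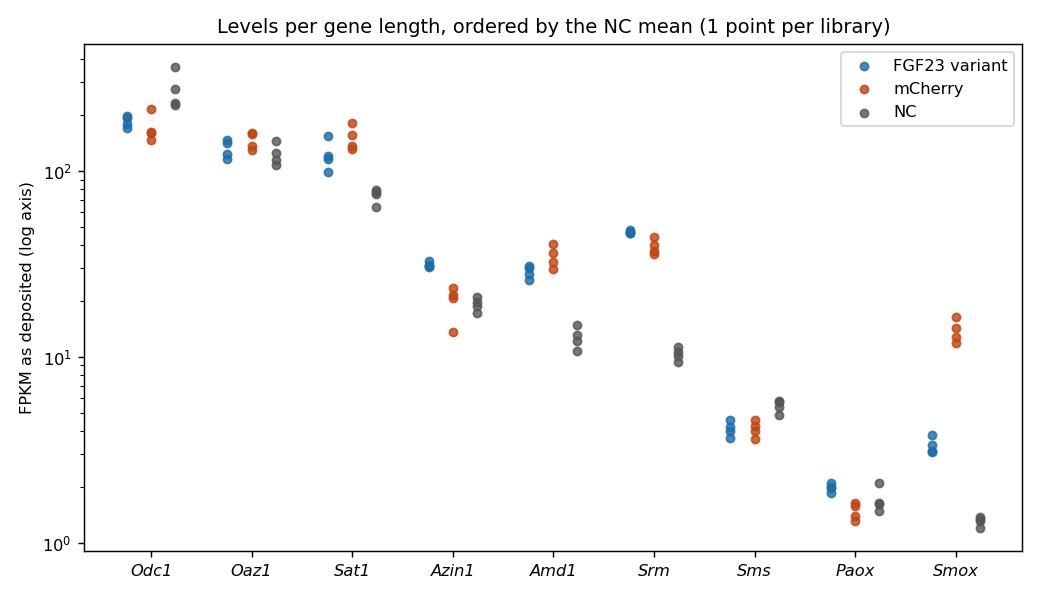
Level of each gene per gene length (deposited FPKM, log axis), 1 point per library, with the genes ordered by their NC mean. Smox lies at 3.09 to 3.78 FPKM in the FGF23 variant libraries, 11.9 to 16.3 FPKM in mCherry and 1.20 to 1.38 FPKM in NC.

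RefSeq (GRCm38.p6) gave a window from 250 bases before to 50 after the start for 7 of the 9 genes, 9 windows in all. Their median GC content was 63.3%, against 52.7% over 32851 windows. Each window was searched on both strands for CACGTG (the E-box of Myc and Max), TGACNNNGC (the core of the antioxidant response element, bound by NRF2), TGACGTCA (the cAMP response element), TGATGCAA (an element of ATF4) and TATAAA (the TATA box). The 3 windows with a match are shown with the matches in capitals, since Smox and Sms changed and Oaz1 did not pass the test in any comparison. They lie at chr2:131491612-131491911 on the plus strand (Smox), chrX:157492238-157492537 on the minus strand (Sms, the first of its windows) and chr10:80826406-80826705 on the plus strand (Oaz1), each printed 5′ to 3′ along its gene.
Smox: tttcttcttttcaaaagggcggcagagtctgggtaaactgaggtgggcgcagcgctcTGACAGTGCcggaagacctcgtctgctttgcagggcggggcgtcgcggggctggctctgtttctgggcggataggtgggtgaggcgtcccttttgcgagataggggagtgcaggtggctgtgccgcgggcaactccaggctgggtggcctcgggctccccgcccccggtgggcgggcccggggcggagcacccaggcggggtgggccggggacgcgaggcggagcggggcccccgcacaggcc
Sms: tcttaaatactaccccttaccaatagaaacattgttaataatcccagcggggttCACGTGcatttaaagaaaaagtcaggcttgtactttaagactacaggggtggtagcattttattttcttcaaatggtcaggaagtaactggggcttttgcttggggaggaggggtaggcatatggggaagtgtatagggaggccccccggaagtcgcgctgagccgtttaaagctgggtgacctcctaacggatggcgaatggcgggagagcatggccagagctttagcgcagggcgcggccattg
Oaz1: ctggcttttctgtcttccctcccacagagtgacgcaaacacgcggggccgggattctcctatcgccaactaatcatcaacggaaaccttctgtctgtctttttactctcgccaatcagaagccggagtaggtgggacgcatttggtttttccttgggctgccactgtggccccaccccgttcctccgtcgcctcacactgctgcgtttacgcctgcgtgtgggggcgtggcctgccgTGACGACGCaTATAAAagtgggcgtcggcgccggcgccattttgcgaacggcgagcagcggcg
The capitals in Smox are a TGACNNNGC match from -193 to -185, counted from the start. Those in Sms are CACGTG from -196 to -191. Oaz1 holds a TGACNNNGC match from -13 to -5 and TATAAA from -3 to 2, which do not overlap each other. Of all windows, 12.4% hold TGACNNNGC, 7.15% CACGTG and 13.6% TATAAA, while 1.79% hold TGACGTCA and 0.895% TGATGCAA, which none of the 9 windows held. A match is a run of letters and not a shown binding site. The mRNA of Nfe2l2, which encodes NRF2, averaged 171 ± 19.1 CPM in the FGF23 variant group, 200 ± 15.5 CPM in mCherry and 105 ± 3.42 CPM in NC (SD, n = 4 each). Nfe2l2 is named outside the rule given below for the wider lists. It was 1.91-fold higher in mCherry than in NC (edgeR adjusted p = 1.03e-05) and did not pass the test in the FGF23 variant group against mCherry. The part of Nfe2l2 in the values of Smox was not tested.

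A gene is called higher or lower where its adjusted p was under 0.05 in edgeR's quasi-likelihood test, adjusted over all genes tested. All 9 genes passed the filter on low counts in each comparison. Of these, 4 were called higher and 2 lower in mCherry against NC, where 27.2% of the 18724 genes tested were called higher and 26% lower. In the FGF23 variant group against mCherry 1 was called higher and 3 lower, against a background of 11.7% higher and 11.4% lower of 18824 genes. In the FGF23 variant group against NC 5 were called higher and 2 lower, against 21.7% higher and 20.6% lower of 19005 genes. The median log2 change of the 9 genes was 0.14, -0.21 and 0.38 in these comparisons, and that of all genes tested was -0.00264, 0.00837 and 0.0109. The genes were chosen with these changes known, so nothing is read from the counts. Each pair of comparisons shares the libraries of 1 group.

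Of the 4 genes of synthesis, Odc1 and Sms fell and Amd1 and Srm rose in mCherry against NC and again in the FGF23 variant group against NC. Between the FGF23 variant and mCherry groups only Amd1 passed the test, and it was lower in the FGF23 variant group.

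Odc1 had 648, 569, 588 and 632 CPM in the FGF23 variant libraries, 598, 607, 581 and 786 CPM in the mCherry libraries, and 931, 1099.6, 1477 and 973 CPM in the NC libraries. All 8 injured libraries lay below the lowest NC library, and the 2 injured groups overlapped. Odc1 was 1.74-fold lower in mCherry than in NC (log2 fold change -0.80 ± 0.17 SE, edgeR adjusted p = 0.00239). It was 1.86-fold lower in the FGF23 variant group than in NC (-0.90 ± 0.14, edgeR adjusted p = 5.64e-04). Between the FGF23 variant group and mCherry the log2 difference was -0.09 ± 0.12 (edgeR adjusted p = 0.591), and it was 0.015 without mCherry replicate 4, the library at 786 CPM, and 0.11 when scaled by library totals alone.

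Amd1 had 88.4, 104, 106 and 95.1 CPM in the FGF23 variant libraries, 140.1, 128, 122 and 153 CPM in mCherry, and 52.3, 44.7, 55.6 and 64.9 CPM in NC. The groups did not overlap, with the FGF23 variant libraries between the other 2 groups. The gene was 2.51-fold higher in mCherry than in NC (log2 1.33 ± 0.13, edgeR adjusted p = 1.03e-05). It was 1.40-fold lower in the FGF23 variant group than in mCherry (log2 -0.48 ± 0.10, edgeR adjusted p = 0.00929), a call lost when scaled by library totals alone (edgeR adjusted p = 0.0902), and 1.79-fold higher than in NC (log2 0.84 ± 0.11, edgeR adjusted p = 2.06e-04). The table also holds Amd2, a near copy with 12.5 ± 1.25 CPM in the FGF23 variant group, 18.8 ± 2.43 CPM in mCherry and 6.91 ± 0.847 CPM in NC, and 4 Amd pseudogenes, so the split of reads among them is uncertain.

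Srm had 72.7, 75.6, 71.8 and 71.8 CPM in the FGF23 variant libraries, 61.9, 86.5, 63.2 and 68.3 CPM in mCherry, and 21.8, 17.6, 19.2 and 20.9 CPM in NC. Every injured library was above every NC library, and the FGF23 variant libraries lay inside the mCherry range. Srm was 3.53-fold higher in mCherry than in NC (log2 1.82 ± 0.13, edgeR adjusted p = 1.53e-06) and 3.63-fold higher in FGF23 variant libraries than in NC (log2 1.86 ± 0.08, edgeR adjusted p = 2.78e-07). The FGF23 variant and mCherry groups differed by 0.05 ± 0.11 on the log2 scale (edgeR adjusted p = 0.793), and by -0.0075 without mCherry replicate 1.

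Sms, the next synthase in the chain, had 26.5, 21.5, 24.2 and 23.1 CPM in the FGF23 variant libraries, 27.6, 29.2, 23.0 and 29.4 CPM in mCherry, and 38.9, 34.4, 41.5 and 42.1 CPM in NC. It was lower in all 8 injured libraries than in any NC library. The fall was 1.43-fold in mCherry against NC (log2 -0.52 ± 0.11, edgeR adjusted p = 0.00286) and 1.66-fold in the FGF23 variant group against NC (log2 -0.73 ± 0.10, edgeR adjusted p = 1.55e-04). The FGF23 variant group differed from mCherry by -0.21 ± 0.11 on the log2 scale (edgeR adjusted p = 0.189), and the groups overlapped. With Srm up and Sms down, the FPKM of Srm was 10.3 to 13.2 times that of Sms in the FGF23 variant libraries and 8.43 to 11.2 times in mCherry, against 1.74 to 2.10 times in NC. A pseudogene, Sms-ps, had 8.49 ± 1.34 CPM in the FGF23 variant group, 9.01 ± 1.36 CPM in mCherry and 12.5 ± 0.801 CPM in NC, so reads of Sms may be split with it.

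**Figure D2:**
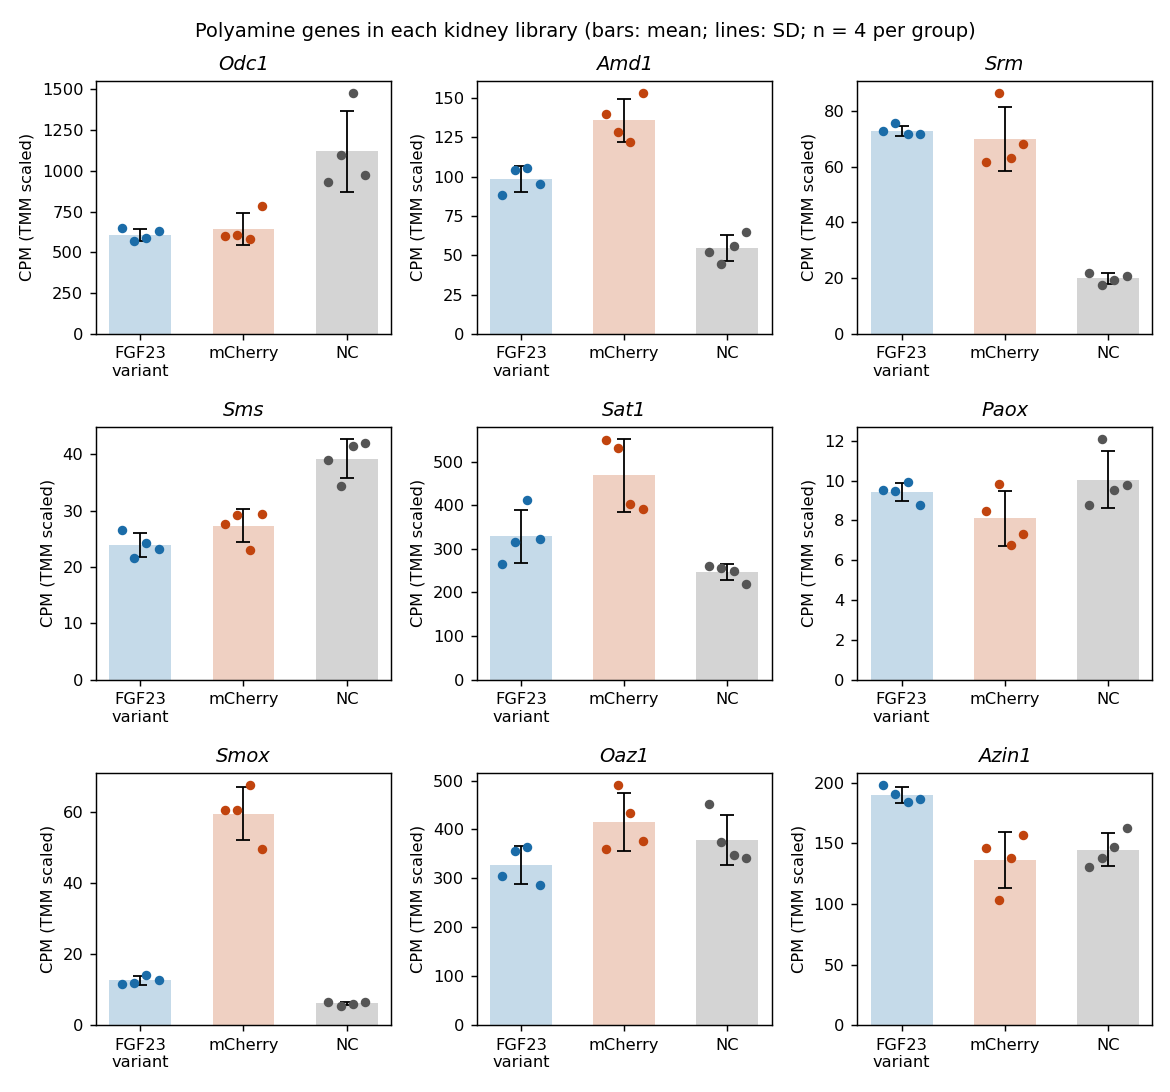
CPM (TMM scaled) of each of the 9 genes, 1 point per library, with bars at the mean and lines for the SD of 4 libraries per group. The groups are fully apart for Amd1 and Smox, and the 4 NC libraries stand alone for Odc1 (931 to 1477 CPM), Srm (17.6 to 21.8 CPM) and Sms (34.4 to 42.1 CPM). For Sat1 the 4 NC libraries (220.1 to 260.5 CPM) also lie below all others, but FGF23 variant replicate 1 is close, at 264 CPM.

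Sat1, the acetyltransferase that starts the return from spermine and spermidine, rose with the injury label. It had 264, 316, 413 and 322 CPM in the FGF23 variant libraries, 551, 531, 402 and 393 CPM in mCherry, and 260.5, 256, 249.5 and 220.1 CPM in NC. Both injured groups lay above NC, but FGF23 variant replicate 1, at 264 CPM, was close to the highest NC library, and FGF23 variant replicate 3 lay above mCherry replicates 3 and 4. Sat1 was 1.91-fold higher in mCherry than in NC (log2 0.93 ± 0.14, edgeR adjusted p = 2.21e-04).

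The calls of Sat1 in the FGF23 variant group depended on which libraries entered the fit. It was 1.44-fold lower than in mCherry (log2 -0.53 ± 0.16, edgeR adjusted p = 0.0421), and that call was lost without FGF23 variant replicate 1, 2 or 5 or without mCherry replicate 1 or 2, with edgeR adjusted p from 0.0200 to 0.113 over the 8 fits that leave out 1 library. It was also lost with library totals alone (edgeR adjusted p = 0.146) and with no filter on low counts (edgeR adjusted p = 0.0683). Against NC, Sat1 was 1.32-fold higher in the FGF23 variant group (log2 0.40 ± 0.13, edgeR adjusted p = 0.0304), lost without FGF23 variant replicate 3 or 5 or without NC replicate 2, 3 or 4 (edgeR adjusted p from 0.00762 to 0.0901 over 8 fits) and with all 12 libraries in 1 fit (edgeR adjusted p = 0.0573). Per gene length, Sat1 stood at 0.501 to 0.862 of Odc1 in the FGF23 variant libraries and 0.613 to 1.13 in mCherry, against 0.207 to 0.343 in NC.

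Of the 2 oxidases, Smox was called in all 3 comparisons and Paox in none by edgeR with TMM scaling. Smox, which acts on spermine itself, had 11.7, 11.9, 14.3 and 12.7 CPM in the FGF23 variant libraries, 60.5, 60.6, 67.7 and 49.5 CPM in mCherry, and 6.498, 5.53, 6.12 and 6.51 CPM in NC. The 3 groups were fully apart, and the lowest mCherry library was above the highest FGF23 variant library by more than the whole range of either group. Smox was 9.69-fold higher in mCherry than in NC (log2 3.28 ± 0.12, edgeR adjusted p = 4.34e-08), 4.77-fold lower in the FGF23 variant group than in mCherry (log2 -2.25 ± 0.12, edgeR adjusted p = 1.45e-05), and 2.03-fold higher in FGF23 variant libraries than in NC (log2 1.02 ± 0.12, edgeR adjusted p = 6.74e-05). These were the largest of the 9 genes' log2 changes in mCherry against NC and in the FGF23 variant group against mCherry, and all 3 calls held in every alternative fit run.

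Paox, the oxidase of acetylated polyamines, had 9.52, 9.48, 9.93 and 8.79 CPM in the FGF23 variant libraries, 8.46, 9.85, 6.77 and 7.33 CPM in mCherry, and 8.77, 12.1, 9.55 and 9.79 CPM in NC. The groups overlapped, and no comparison passed the test. Its log2 difference was -0.31 ± 0.17 in mCherry against NC (edgeR adjusted p = 0.151), 0.20 ± 0.15 in the FGF23 variant group against mCherry (edgeR adjusted p = 0.339) and -0.11 ± 0.13 in the FGF23 variant group against NC (edgeR adjusted p = 0.527). The first of these passed with limma-voom quality weights (adjusted p = 0.0344) and the next with library totals alone (edgeR adjusted p = 0.0428). The FPKM of Smox was 1.55 to 1.81 times that of Paox in the FGF23 variant libraries, 7.78 to 12.6 times in mCherry and 0.571 to 0.939 times in NC.

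Summed markers of tubular injury (Havcr1, Lcn2, Krt20, Vcam1, Clu and Spp1) were ordered over the groups as Smox was. They came to 7301 to 27204 CPM in the FGF23 variant libraries, 37058 to 41484 CPM in mCherry and 934 to 1054 CPM in NC. Spp1 was the most abundant of the 6. Vcam1 did not share the order, at 13.6 ± 0.858 CPM in the FGF23 variant group, 11.6 ± 3.13 CPM in mCherry and 9.37 ± 1.02 CPM in NC. Of the 6 markers, 5 rose in mCherry against NC, 5 fell in the FGF23 variant group against mCherry and 6 rose in the FGF23 variant group against NC. Of all genes tested, 27.2% rose and 26% fell in the first comparison, 11.7% and 11.4% in the second and 21.7% and 20.6% in the third. The part of the injury markers in the values of Smox was not tested. Macrophage markers (Adgre1, Cd68, Csf1r, C1qa and Lyz2) summed to 77.4 to 106 CPM in the FGF23 variant libraries, 91.7 to 210.2 CPM in mCherry and 111 to 159 CPM in NC, with none at 0. In mCherry against NC 1 of the 5 rose and 2 fell, and in the FGF23 variant group against mCherry 1 rose and 2 fell. One of them, Cd68, followed the group order of Smox and averaged 14.8 ± 4.21 CPM in FGF23 variant libraries, 42.2 ± 14.0 CPM in mCherry and 2.74 ± 0.907 CPM in NC (SD, n = 4 each). Csf1r and Adgre1 were lowest in mCherry instead. Csf1r averaged 37.5 ± 5.21 CPM in FGF23 variant libraries, 24.2 ± 3.99 CPM in mCherry and 80.3 ± 7.74 CPM in NC. Adgre1 averaged 2.45 ± 0.514, 1.61 ± 0.715 and 3.66 ± 0.502 CPM in the same groups. All 3 tested neutrophil markers rose in mCherry against NC, but the 4 summed to at most 5.40 CPM in the FGF23 variant libraries, 8.73 CPM in mCherry and 1.23 CPM in NC. Lymphocyte markers summed to at most 1.78 CPM in any library. The part of these cells in the values of Smox was not tested.

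The antizyme OAZ1 binds ODC1 and leads it to the proteasome, and its inhibitor AZIN1, a relative of ODC1 without the enzyme's activity, binds antizyme in its place. Oaz1 had 305, 355, 364 and 286 CPM in the FGF23 variant libraries, 360.2, 492, 434 and 376 CPM in mCherry, and 452, 374, 349 and 341 CPM in NC. The 3 groups overlapped. The log2 difference was 0.14 ± 0.13 in mCherry against NC (edgeR adjusted p = 0.416), -0.36 ± 0.13 in the FGF23 variant group against mCherry (edgeR adjusted p = 0.0697, and 0.0475 with DESeq2) and -0.23 ± 0.12 in the FGF23 variant group against NC (edgeR adjusted p = 0.147). The pseudogene Oaz1-ps, with 9.44 ± 0.794 CPM in the FGF23 variant group, 11.4 ± 2.14 CPM in mCherry and 11.2 ± 1.49 CPM in NC, may share its reads.

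Azin1 had 198, 190.3, 184 and 187 CPM in the FGF23 variant libraries, 146, 104, 138 and 157 CPM in mCherry, and 131, 138, 147 and 163 CPM in NC. The FGF23 variant libraries lay above all others, while mCherry and NC overlapped. Azin1 was 1.38-fold higher in FGF23 variant libraries than in mCherry (log2 0.46 ± 0.12, edgeR adjusted p = 0.0243) and 1.30-fold higher than in NC (log2 0.38 ± 0.08, edgeR adjusted p = 0.00429). The call against mCherry was lost without FGF23 variant replicate 1, 2 or 5, with edgeR adjusted p from 0.0184 to 0.0661 over the 8 fits. In mCherry against NC the log2 difference was -0.08 ± 0.13 (edgeR adjusted p = 0.614), and it was 0.027 without mCherry replicate 2 and 0.050 with library totals alone. The FPKM of Odc1 was 5.49 to 6.22 times that of Azin1 in the FGF23 variant libraries and 7.51 to 10.8 times in mCherry, against 11.01 to 18.5 times in NC.

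**Figure D3:**
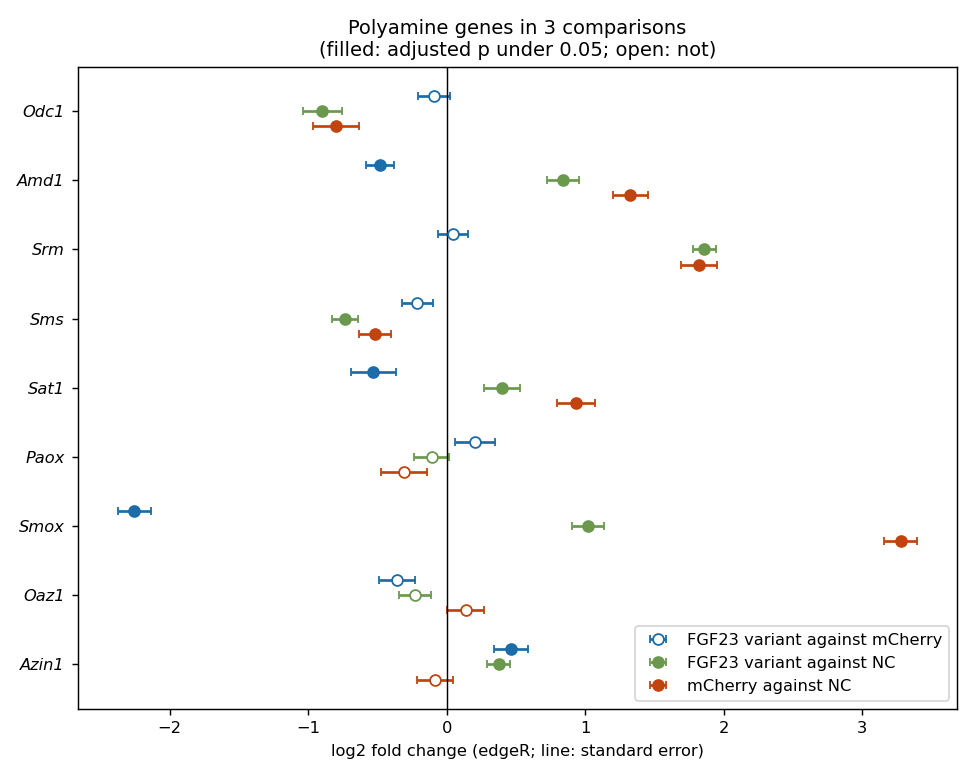
Log2 fold change from edgeR for the 9 genes in the 3 comparisons, with lines for the standard error and filled points for an adjusted p under 0.05. Smox reaches 3.28 in mCherry against NC and -2.25 in the FGF23 variant group against mCherry, while Odc1, Srm and Sms lie at -0.09, 0.05 and -0.21 in the FGF23 variant group against mCherry and have filled points in both comparisons with NC.

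The wider pathway was described with 44 further genes, of which 42 were analysed here (Otc and Atp13a5 were not). In mCherry against NC 16 of the 40 tested rose and 15 fell (median log2 change -0.08), beside 27.2% higher and 26% lower of all genes tested. In the FGF23 variant group against mCherry 7 of 42 rose and 4 fell (median 0.01), beside 11.7% and 11.4%. In the FGF23 variant group against NC 16 of 41 rose and 15 fell (median -0.08), beside 21.7% and 20.6%.

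Of the 4 tested genes that supply ornithine and arginine, 2 rose and 2 fell in mCherry against NC. Of all genes tested, 27.2% rose and 26% fell there. In the FGF23 variant group against NC 3 rose and 1 fell, beside 21.7% and 20.6%. Against mCherry, 2 rose and 1 fell in the FGF23 variant group, beside 11.7% and 11.4%. The arginase Arg2, which makes ornithine, was among those that rose in both comparisons with NC. It averaged 61.6 ± 29.5 CPM in the FGF23 variant group, 104 ± 20.3 CPM in mCherry and 3.64 ± 1.21 CPM in NC (SD, n = 4 each). It was 28.8-fold higher in mCherry than in NC (edgeR adjusted p = 1.53e-07) and 16.8-fold higher in FGF23 variant libraries than in NC (edgeR adjusted p = 1.90e-05). Oat, the ornithine aminotransferase that draws on the same ornithine, averaged 243 ± 25.5 CPM in the FGF23 variant group, 141 ± 21.8 CPM in mCherry and 187 ± 19.3 CPM in NC. It was 1.71-fold higher in FGF23 variant libraries than in mCherry (edgeR adjusted p = 0.00357).

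All 5 tested genes of the methionine and S-adenosylmethionine cycle fell in each comparison with NC, with a median log2 change of -1.31 in mCherry and -0.90 in the FGF23 variant group, where 26% and 20.6% of all genes tested were called lower. In the FGF23 variant group against mCherry 1 of 6 rose and the other 5 did not pass the test. In that comparison 11.7% of all genes tested were called higher and 11.4% lower, so nothing is read from these counts. Of 5 genes that salvage methylthioadenosine, the by-product of both synthases, 3 rose in each comparison with NC, beside 27.2% of all genes tested in mCherry and 21.7% in the FGF23 variant group. One of them, Mtap, was 1.30-fold lower in the FGF23 variant group than in mCherry (48.2 ± 1.21 against 61.9 ± 6.93 CPM, edgeR adjusted p = 0.0175), a call lost without FGF23 variant replicate 1 (edgeR adjusted p = 0.0501) and with library totals alone (edgeR adjusted p = 0.242).

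Spermidine also feeds hypusine, a modified lysine that DHPS and DOHH build on the translation factor EIF5A. Of Dhps, Dohh, Eif5a and Eif5a2, 3 rose in mCherry against NC and 3 in the FGF23 variant group against NC, beside 27.2% and 21.7% of all genes tested. In the FGF23 variant group against mCherry, 11.4% of all genes tested were called lower and 11.7% higher. Against mCherry, the FGF23 variant group had 1.51-fold less Dohh (39.2 ± 2.29 against 58.6 ± 11.1 CPM, edgeR adjusted p = 0.0105) and 1.33-fold less Eif5a (613 ± 28.7 against 805 ± 96.7 CPM, edgeR adjusted p = 0.0226), and 1 gene, Eif5a2, rose. The Eif5a call was lost without FGF23 variant replicate 1, 2 or 5 or mCherry replicate 4 (edgeR adjusted p from 0.0218 to 0.0643 over 8 fits) and with library totals alone (edgeR adjusted p = 0.158).

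Of 9 polyamine transport genes, 2 were higher and 4 lower than in NC in each injured group. The share higher was close to that over all genes tested, 27.2% in mCherry and 21.7% in the FGF23 variant group, and 26% and 20.6% of all genes were lower, so nothing is read from these counts. The organic cation carriers Slc22a2 and Slc47a1, both of the proximal tubule, were among those that fell. Slc22a2 was 4.07-fold lower in mCherry than in NC (86.7 ± 28.1 against 354 ± 38.2 CPM, edgeR adjusted p = 4.78e-05) and 4.11-fold lower in the FGF23 variant group than in NC (edgeR adjusted p = 5.00e-06). Slc47a1 was 3.61-fold lower in mCherry and 2.94-fold lower in the FGF23 variant group. The proximal tubule markers given above were lower in the same groups, and their part in these values was not tested. Slc3a2, a heavy chain of amino acid transporters that has been linked to polyamine export, averaged 400.2 ± 31.5 CPM in the FGF23 variant group, 238 ± 35.1 CPM in mCherry and 131 ± 24.2 CPM in NC. It rose 1.67-fold in the FGF23 variant group against mCherry (edgeR adjusted p = 0.00340) and 3.01-fold against NC (edgeR adjusted p = 1.07e-05). Atp13a4, named after its values were seen, had 0 counts in all NC libraries and was at least 7.32-fold higher in mCherry and at least 17.6-fold higher in the FGF23 variant group by the mean of each over a floor of 3 counts per library.

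In further acetylation and oxidation, Aldh9a1, which oxidises aminobutyraldehyde from putrescine, fell 4.42-fold in mCherry against NC (125 ± 18.6 against 554 ± 39.3 CPM, edgeR adjusted p = 4.01e-07) and 3.95-fold in the FGF23 variant group against NC (edgeR adjusted p = 2.11e-06). Sat2 and Aoc1 are named after their values were seen. Sat2, a relative of Sat1, averaged 6.90 ± 1.49 CPM in the FGF23 variant group, 4.33 ± 0.744 CPM in mCherry and 15.2 ± 1.498 CPM in NC, so it was 3.49-fold lower in mCherry than in NC (edgeR adjusted p = 6.55e-06), where Sat1 was higher. Aoc1, a diamine oxidase for putrescine and histamine, averaged 14.5 ± 4.81 CPM in the FGF23 variant group, 15.6 ± 4.88 CPM in mCherry and 4.86 ± 2.01 CPM in NC and rose 3.22-fold in mCherry against NC (edgeR adjusted p = 9.89e-04).

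Of 5 genes known to induce members of the pathway, 4 rose in each comparison with NC. Of all genes tested, 27.2% were called higher in mCherry and 21.7% in the FGF23 variant group. Myc, a known activator of Odc1, averaged 63.7 ± 0.382 CPM in the FGF23 variant group, 69.1 ± 5.03 CPM in mCherry and 7.52 ± 2.51 CPM in NC. It was 9.21-fold higher in mCherry than in NC (edgeR adjusted p = 1.33e-06) and 8.37-fold higher in FGF23 variant libraries than in NC (edgeR adjusted p = 2.75e-06), where Odc1 was lower. Atf4, a factor of the amino acid stress response, was 3.32-fold higher in mCherry than in NC (284 ± 31.7 against 86.0 ± 4.03 CPM, edgeR adjusted p = 4.33e-07).

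**Figure D4:**
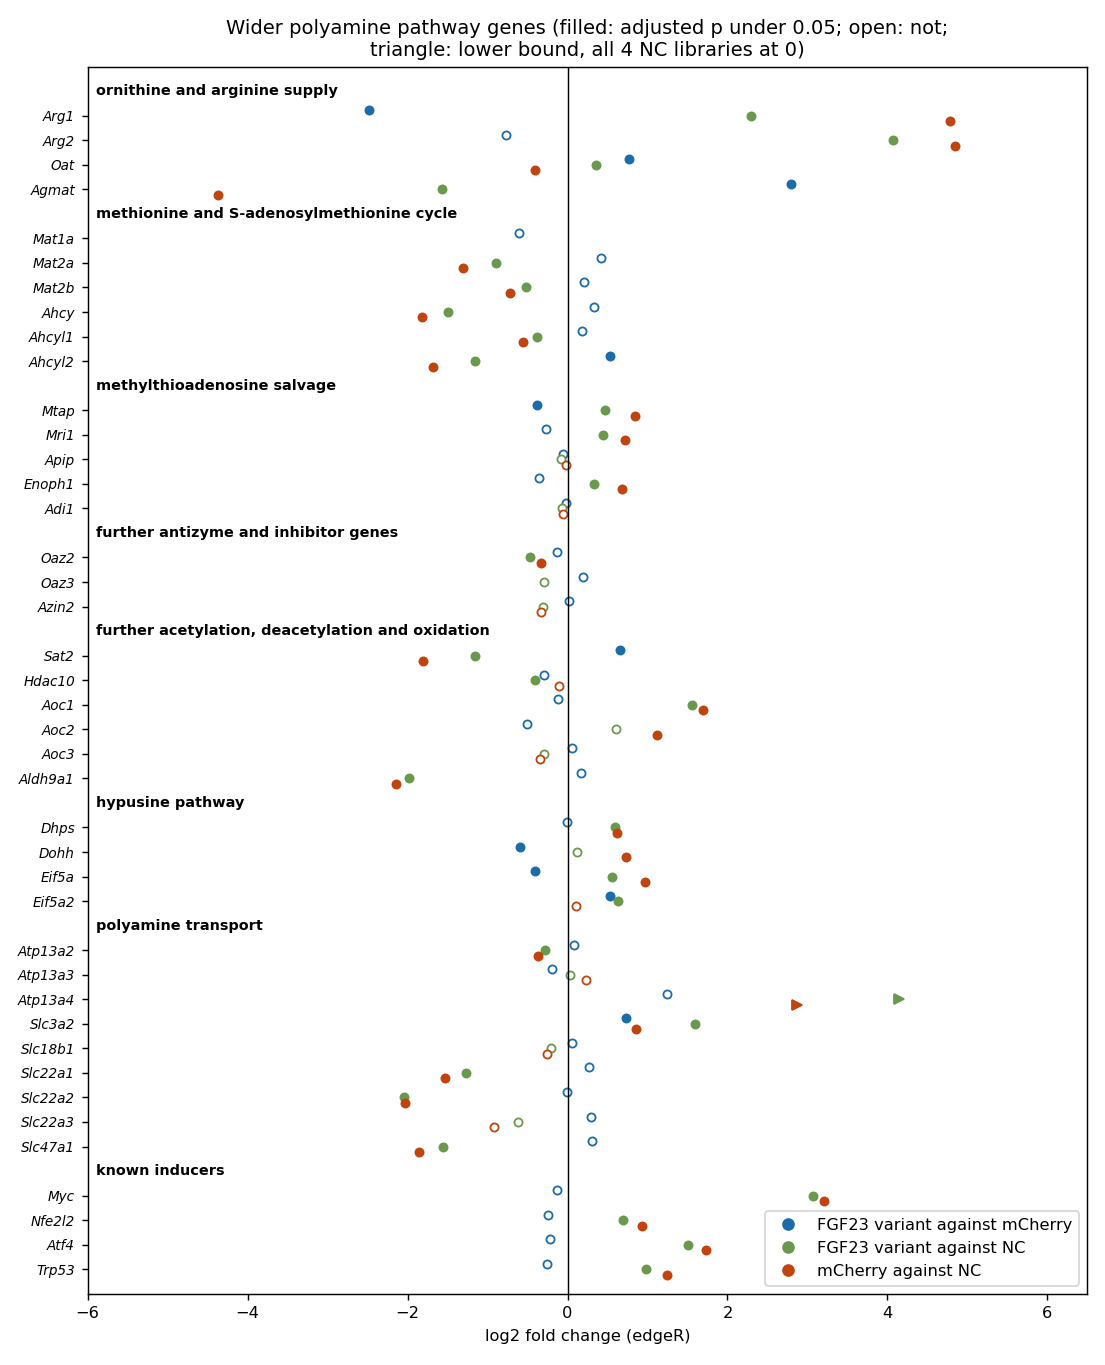
Log2 fold change from edgeR of wider pathway genes in each comparison where they were tested, grouped by role, with filled points for an adjusted p under 0.05 and triangles for lower bounds where all 4 NC libraries were at 0. Every tested gene of the methionine and S-adenosylmethionine cycle lies left of 0 against NC, and Arg2 and Myc lie far to the right.

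Because renal Odc1 is known to depend on androgen in mice, it is set beside sex-biased kidney genes. The 6 genes known to be higher in male kidney (Kap, Slco1a1, Cyp2e1, Cyp4a12a, Cyp4a12b and Slc7a13) summed to 1155 to 2586 CPM in the FGF23 variant libraries, 5641 to 16141 CPM in mCherry and 21550 to 26060 CPM in NC, and all 6 were detected in every library. Of the 6, 5 fell in mCherry against NC and 6 in the FGF23 variant group against NC, where Odc1 was lower too. Of all genes tested, 26% and 20.6% were called lower in these comparisons. In the FGF23 variant group against mCherry, where Odc1 did not pass the test, 1 rose and 4 fell. There 11.7% of all genes tested were called higher and 11.4% lower. Kap, an androgen-regulated gene of the proximal tubule and the most abundant of the 6, averaged 1722 ± 552 CPM in the FGF23 variant group and 9866 ± 4321 CPM in mCherry, against 20652 ± 2210.3 CPM in NC. Slc7a13 was lowest in mCherry, at 89.6 ± 45.0 CPM in the FGF23 variant group, 18.4 ± 4.92 CPM in mCherry and 944 ± 204 CPM in NC. Cyp4a12b was highest in mCherry, at 9.54 ± 8.12 CPM in the FGF23 variant group, 49.7 ± 28.8 CPM in mCherry and 32.5 ± 7.34 CPM in NC. The 4 genes known to be higher in female kidney (Prlr, Slc7a12, Cyp4a14 and Abcc3) summed to 127 to 204 CPM in the FGF23 variant libraries, 13.3 to 82.3 CPM in mCherry and 59.7 to 116 CPM in NC. Of these, 1 rose and 2 fell in mCherry against NC, beside 27.2% higher and 26% lower of all genes tested. In the FGF23 variant group 2 rose and 0 fell against mCherry, and 3 rose and 0 fell against NC. Of all genes tested, 11.7% and 21.7% were called higher there. The 4 female-biased genes did not move together. Prlr, the prolactin receptor, averaged 52.3 ± 17.1 CPM in the FGF23 variant group, 2.06 ± 0.714 CPM in mCherry and 9.41 ± 5.06 CPM in NC. Abcc3, an export pump for organic anions, averaged 11.1 ± 2.64 CPM in the FGF23 variant group, 12.6 ± 6.47 CPM in mCherry and 3.81 ± 1.84 CPM in NC, so it was 3.32-fold higher in mCherry than in NC (edgeR adjusted p = 0.00463), where Prlr was lower. The Y-linked gene Ddx3y had 30.7 to 52.7 CPM over the 12 libraries and Xist at most 0.602 CPM. The part of androgen, or of the loss of proximal tubule RNA, in the Odc1 values was not tested.

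**Figure D5:**
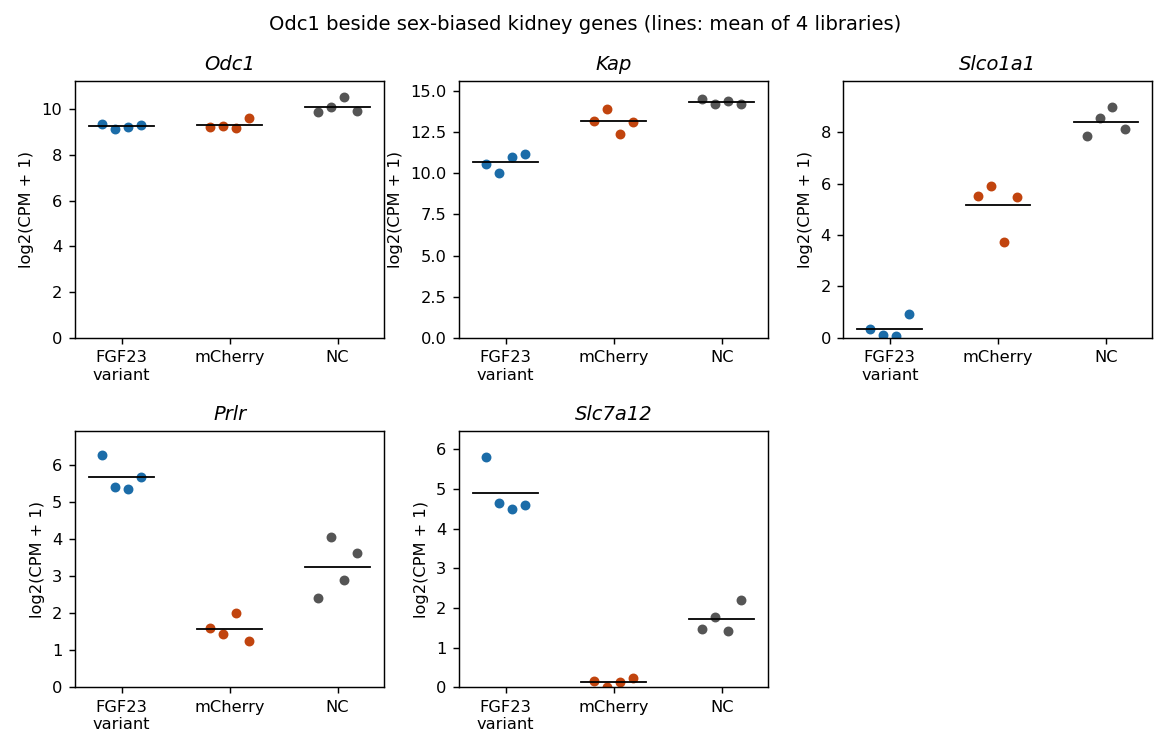
Odc1, the male-biased Kap and Slco1a1 and the female-biased Prlr and Slc7a12, as log2(CPM + 1), 1 point per library with lines at the mean of 4. Kap and Slco1a1 are lowest in the FGF23 variant libraries, higher in mCherry and highest in NC. Slc7a13 and Cyp4a12b, also male-biased and not shown, do not have this order. Odc1 has the FGF23 variant and mCherry libraries at one level (569 to 786 CPM) below NC.

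Genes whose log2(CPM + 1) followed a member most closely over the 12 libraries were sought among 11045 genes averaging at least 5 CPM. For Smox these were Vgf (Pearson r = 0.990), Pold3 (0.988) and Sprr2g (0.988). Vgf had 2.49 to 6.24 CPM in the FGF23 variant libraries, 71 to 146 CPM in mCherry and 0 to 0.145 CPM in NC. For Sat1 they were Dnttip1 (0.968), Ap1s2 (0.961) and Itga5 (0.957), and for Odc1 Zbtb44 (0.964), Nisch (0.953) and Pcsk4 (0.950). Zbtb44 had 32.7 to 38.4 CPM in the FGF23 variant libraries, 33.6 to 48.4 CPM in mCherry and 60.3 to 83.7 CPM in NC. The points share 3 groups and their scaling factors, and many genes follow the same groups, so these values are descriptions.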

How the data were processed

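Per the labels' protocols, poly(A) RNA was sequenced from strand-marked (dUTP) libraries. The deposited tables hold, per the file headers, whole-number counts and the authors' FPKM for 32047 genes, and the 12 per-sample tables equal the series table. Tools listed in the submitters' processing notes are fastp, StringTie and edgeR, with build GRCm39; no version, aligner or annotation is stated there. FPKM served for the levels of genes, their order in each group and the ratios between genes, and no test used them. The TMM factors given below were not applied to the FPKM, so FPKM and CPM can differ between groups. Among the deposited counts, 4 occurred 11995 times and 3 occurred 5847 times, so a count need not be 1 molecule, and floors (a nominal 3 counts) cover counting error only. Symbols matched 31942 identifiers.

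For each comparison, edgeR 4.0.16 in R 4.3.3 was run on the 8 libraries of its 2 groups (TMM, filterByExpr, glmQLFit and glmQLFTest with group as the only term, Benjamini-Hochberg over all genes tested, 0.05). An SE is the log2 fold change over the square root of F. CPM use TMM factors over all 12 libraries, which lay between 1.11 and 1.13 for FGF23 variant libraries, 0.901 and 1.03 for mCherry and 0.888 and 0.925 for NC. No pair of libraries from 1 group agreed within counting noise (chi-square over degrees of freedom between 31.9 and 137), so none was taken for a copy of another. Counts may not be independent molecules, so this ratio does not measure the spread between replicates. The fit was tested on simulated data.

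The alternatives were RLE factors, library totals alone, no filter, DESeq2 1.42.0, limma-voom (limma 3.58.1) with quality weights, all 12 libraries in 1 fit, a replicate block, and fits without each single library. The members, lists and rules were chosen with earlier results of these data known. All 9 members are named; of the wider lists, up to 3 genes higher and 3 lower by log2 fold change per comparison, among those called with a mean of at least 5 CPM, plus context genes and the 3 genes of highest Pearson r with Smox, Sat1 and Odc1. One gene that this rule names is not reported here. A planned comparison of protein sequences was not run.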

Additional observations from a re-analysis of the deposited data

Results flagged for a closer look

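A library stood apart from the 3 others of its group in 5 of 87 gene and group combinations examined (its gap to the nearest library took up most of the group's range, past Dixon's 95% critical value, which chance gives in about 1 of 20). Among the 9 polyamine genes this was 1 of 27. Odc1 reached 786 CPM in mCherry replicate 4, against 581 to 607 CPM in the 3 others. Among the wider genes, Eif5a had 655 CPM in FGF23 variant replicate 3, against 594 to 602 CPM. Sat2 had 9.11 CPM in FGF23 variant replicate 1, against 5.86 to 6.39 CPM, and the female-biased Slc7a12 had 54.9 CPM in that library, against 21.5 to 24.1 CPM. Slc3a2 had 95.0 CPM in NC replicate 1, against 142 to 145 CPM in the 3 others.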

How the results depend on the processing

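Of 405 recomputed values of the 9 polyamine genes, 374 kept their direction and side of the threshold, as did 260 of 270 for the named wider genes; 21 and 10 lost the call. Scaling by library totals alone moved the median log2 change of all genes to 0.12 in mCherry against NC, 0.21 in the FGF23 variant group against mCherry and 0.34 in the FGF23 variant group against NC. With it, 4060 genes were called higher and 1035 lower in the FGF23 variant group against mCherry (79.7% of calls higher, against 50.6% with TMM), and 7829 higher and 2096 lower in the FGF23 variant group against NC (78.9%, against 51.3%). Of the 9 genes, 2 were then higher and 1 lower in the FGF23 variant group against mCherry. Log2 changes turned to 0.050 for Azin1 in mCherry against NC, 0.11 for Oaz1 and 0.22 for Paox in the FGF23 variant group against NC, and 0.11 for Odc1 in the FGF23 variant group against mCherry. None of these 4 was called, and each lies below the shift of the median. A replicate block gave 944 higher and 766 lower in the FGF23 variant group against mCherry, with 0 and 1 of the 9 genes (Amd1 had edgeR adjusted p = 0.104, Sat1 0.128 and Azin1 0.0591, and of the wider genes Dohh 0.0601, Mtap 0.123 and Eif5a 0.158), and 2382 higher and 2333 lower in the FGF23 variant group against NC, where Sat1 lost its call (edgeR adjusted p = 0.204). These fits used the 6 libraries with shared numbers. Deviations of same-numbered libraries correlated at -0.389 to 0.101 in mCherry and NC, 0.0813 to 0.231 in the FGF23 variant and mCherry groups and -0.225 to -0.0989 in the FGF23 variant and NC groups. FGF23 variant replicates 1 and 3 matched the mCherry library of their own number best, and no library did so in the other comparisons. The labels state no pairing and these values do not settle it, so the numbers were not taken to pair samples. Leaving out each library gave 1252 to 2088 higher and 1158 to 2171 lower genes in the FGF23 variant group against mCherry (1252 and 1158 without FGF23 variant replicate 1, 1439 and 1279 without replicate 5, 1359 lower without replicate 2) and 0 to 1 higher of the 9 genes. The log2 change ran from -0.16 to 0.027 for Azin1 in mCherry against NC, from -0.14 to 0.015 for Odc1 and from -0.0075 to 0.17 for Srm in the FGF23 variant group against mCherry, none of them called. Causes were not tested. At 4 libraries a group, the SEs of the 9 genes ran from 0.08 to 0.17 on the log2 scale, and 1 difference of Oaz1 and 2 of Paox each passed in 1 alternative fit and in no other.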
